A study of Arabidopsis thaliana with 36 samples.

Results

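The 12 h of germination between the time points G12h and G24h were followed in seeds of *h3.3ko*, an *Arabidopsis* mutant that lacks functional genes for the histone variant H3.3. The data were the 3 *h3.3ko* G24h libraries and the 3 *h3.3ko* G12h libraries, 6 of the 36 RNA-seq libraries of the study. Of the 27655 genes in the table, 16377 had at least 1 TPM in at least 3 of these 6 libraries and were tested. TPM is a read count divided by gene length and scaled to a fixed library total. All fold changes are differences of log2(TPM + 1) between the group means, G24h over G12h, which understates the change of genes with few reads.

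The *h3.3ko* seeds carried a CRISPR double mutation of *HTR4* and *HTR5* and a T-DNA insertion in *HTR8*. They segregated from plants that also carried a *pHTR5::HTR5* rescue transgene with a seed mCherry marker, and were picked as seeds without mCherry, so the group depends on that sorting and on mother plants with H3.3. The wild type was Columbia (Col). Seeds of both genotypes had been stored, were then stratified in the cold on medium and moved to long days, in which G12h and G24h are 12 and 24 h after the move. The other time points are mature seeds (MS) and 12, 24 or 48 h of stratification (S12h, S24h, S48h), again with 3 biological replicates in each group. According to the study, Col seeds had completed germination by G24h and *h3.3ko* seeds had not. G12h and G24h also lie 12 h apart in the day, so that time of day and time since the move cannot be told apart.

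As background, H3.3 is the form of histone H3 that is placed into chromatin outside of DNA replication, and it marks transcribed genes. A germinating seed takes up water, breaks down stored oil and protein, loosens the walls of the embryo and the surrounding endosperm under the control of gibberellin and against abscisic acid, and finally pushes out the radicle. DNA replication and the genes of photosynthesis start late in this sequence. The circadian clock of *Arabidopsis* runs as a loop in which genes expressed at dawn, such as *LHY* and *CCA1*, repress genes expressed in the evening, and these in turn repress the dawn genes.

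The 6 libraries held between 18.5 and 19.3 M reads in genes, as recovered from the table, and the 36 libraries between 17 and 19.3 M reads. A gene of 1 kb without a read in these 6 libraries lies under a limit of 0.304 to 0.325 TPM, the value of 3 reads, which covers counting error only. Replicate 1 of *h3.3ko* G24h held traces of transcripts that the other 5 libraries lacked, and each result that rests on it is given with and without it. Replicate 1 of *h3.3ko* G12h had the highest values of heat shock genes. Markers of the seed coat (*BAN*, *TT10*, *TT12*) had no read in any of the 6 libraries, while the embryo epidermis genes *ATML1*, *PDF1* and *PDF2* were present in all of them and did not pass the test, with fold changes between -0.04 and 0.23. Of the endosperm markers, *EPR1* (AT2G27380) was measured and *ZOU* had at most 0.0919 TPM.

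The mutated genes were checked first. *HTR8* had 14.9, 9.93 and 9.38 TPM in *h3.3ko* at G24h and 5.75, 7.73 and 7.11 TPM in *h3.3ko* at G12h, against means of 497 TPM in Col at G24h and 495 TPM in Col at G12h. *HTR4* averaged 65.8 ± 6.48 TPM in *h3.3ko* and 444 ± 4.11 TPM in Col at G24h (SD, n = 3 each), and *HTR5* averaged 119 ± 9.23 TPM in *h3.3ko* and 375 ± 12.3 TPM in Col. All 3 genes were thus lower in the mutant libraries than in Col libraries of the same time. Between the mutant time points, *HTR4* and *HTR5* differed by 0.01 and 0.06 on the log2 scale, and *HTR8* by 0.64 (adjusted p = 0.0061), which is less than 2-fold. The *HTR8* difference includes replicate 1 of G24h, whose 14.9 TPM stood above 9.93 and 9.38 TPM in the other replicates. These other replicates also stood above every G12h value. Reads of an edited gene do not test the edit itself, and reads of near-identical H3 genes can be split between copies.

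The step from G12h to G24h changed few genes in the mutant by more than 2-fold. Under limma, with a Benjamini-Hochberg adjusted p under 0.05 and a log2 fold change above 1 in size, 56 genes rose (0.342% of those tested) and 96 fell (0.586%). The median fold change of these genes was 1.31 for the rises and -1.14 for the falls. Leaving out replicate 1 of *h3.3ko* G24h gave 53 rises and 79 falls, of which 47 and 70 were among the 56 and 96. At any fold, 1100 genes were higher (6.72%) and 6137 were lower (37.5%) at an adjusted p under 0.05, so that most of the genes past the p threshold changed by less than 2-fold. In bulk seeds, fewer cells of a type and less RNA per cell cannot be told apart.

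The direction of small changes depended on the scaling. The median fold change of all tested genes was -0.17. TPM are shares of a fixed total, and seed storage transcripts took a larger share of it at G24h (17.2%) than at G12h (11.4%), whose part in this shift was tested only by leaving those genes out. With median-of-ratios scaling, which sets that median to -0.00, 89 genes rose and 43 fell, so that 67.4% of the calls were rises, against 36.8% on TPM as deposited. Of the 56 rises 55 were also called under that scaling, and of the 96 falls 43 were. Quantile normalization gave 88 rises and 45 falls, and leaving out the storage protein genes gave 80 and 69, with a median of -0.08. A fold change below is therefore best read against -0.17, and the losses of named falls under median-of-ratios scaling are given beside them. Genes that rose past 2-fold only under that scaling are not named. Statements below that none passed 2-fold hold for TPM as deposited unless another scaling is named. As 0.342% of all tested genes rose and 0.586% fell, the lack of a call in a short list does not set that list apart.

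The gene with the largest rise was *LHY*, a dawn transcription factor of the clock, on chromosome 1 at 33365 to 37871 of TAIR10. It had 37.0, 37.3 and 33.1 TPM at G24h, against 1.18, 1.43 and 1.82 TPM at G12h, a fold change of 3.90 ± 0.11 (SE, adjusted p = 3.1e-09). These values rest on 1472 to 1590 reads at G24h and 49 to 77 reads at G12h. *PDF1.4*, a plant defensin, had 174, 169 and 190 TPM at G24h and 29.8, 29.4 and 30.5 TPM at G12h (fold change 2.53). Replicates of both genes lay close together within each time, and the lack of overlap between the times was a condition for naming them.

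Other large rises were those of single genes of different functions. AT5G15950, an adenosylmethionine decarboxylase of polyamine synthesis, had 20.1, 17 and 17 TPM at G24h and 2.84, 2.42 and 1.96 TPM at G12h (2.48). The lectin genes *JAL33* and AT1G52100 had 7.59, 11.1 and 13.2 TPM and 3.57, 5.99 and 7.58 TPM at G24h, against 1.51, 1.73 and 2.07 TPM and 0.90, 0.595 and 0.758 TPM at G12h (2.04 and 1.89). Both lectins were lowest at G24h in replicate 1. *TT7*, the flavonoid 3'-hydroxylase, had 41.7, 55.3 and 46.6 TPM at G24h and 12.3, 11.9 and 14.6 TPM at G12h (1.81). *ATH13*, annotated as ABC2 homolog 13, had 20.1, 23.7 and 19.4 TPM at G24h and 5.22, 5.07 and 6.02 TPM at G12h (1.78). For all of these genes the lowest G24h library stood above the highest G12h library, which the rule for naming genes asked for. Over all calls the libraries of the 2 times did not overlap for 55 of the 56 rises and 94 of the 96 falls, where 9.26% of all tested genes did not overlap with G24h higher and 44.7% with G24h lower.

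**Figure D1:**
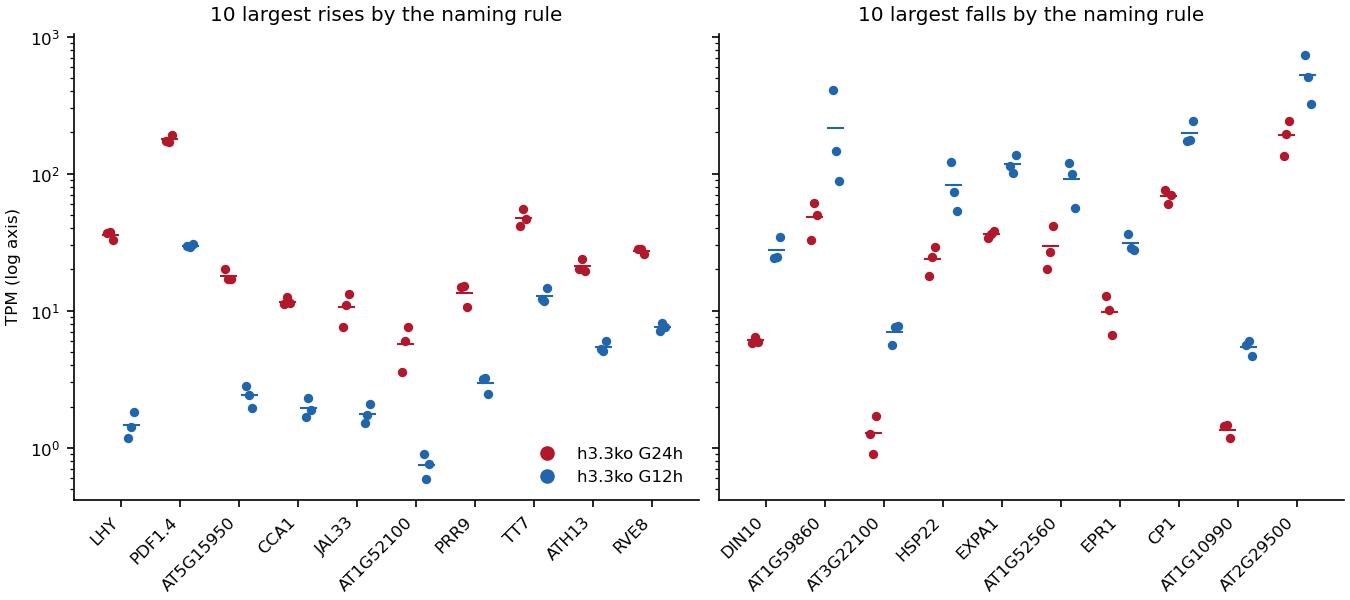
TPM of the 10 genes with the largest rise and the 10 with the largest fall in *h3.3ko*, on a log axis, with G24h left of G12h. Points are the 3 libraries of each time and bars are means. The rule by which the 20 genes were named asked for no overlap between the groups, so its absence here is set by the selection.

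The clock genes of the morning rose together. Of the 10 listed (*CCA1*, *LHY*, *RVE1*, *RVE2*, *RVE4*, *RVE8*, *PRR9*, *PRR7*, *LNK1*, *LNK2*), 9 rose and *PRR7* was higher by 0.21 only (adjusted p = 0.049), with a median of 1.42 against -0.17 over all tested genes. The share of all tested genes that rose was 0.342%. *CCA1*, the partner of *LHY*, had 11.1, 12.6 and 11.3 TPM at G24h and 1.69, 2.29 and 1.89 TPM at G12h (2.1). *PRR9*, a repressor of *CCA1* and *LHY*, had 14.8, 15.0 and 10.7 TPM at G24h and 3.15, 3.21 and 2.48 TPM at G12h (1.87). *RVE8*, an activator of evening genes, had 28.1, 28.2 and 25.9 TPM at G24h and 7.09, 8.18 and 7.65 TPM at G12h (1.72). The coactivators *LNK1* and *LNK2* rose by 1.09 and 1.44, *RVE1* by 1.41 and *RVE2* by 1.31. *RVE4* rose by 1.02, and without replicate 1 of G24h or replicate 3 of G12h it was no longer above 2-fold. Median-of-ratios scaling left the count at 9 of 10.

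The genes that peak in the afternoon and evening did not pass 2-fold. Of 12 listed, none rose or fell, 6 were lower at an adjusted p under 0.05, against 37.5% of all tested genes, and the median was -0.16, close to that of all genes. *ELF4*, a part of the evening complex that represses *PRR9* and *LUX*, had 144, 146 and 162 TPM at G24h and 250, 277 and 303 TPM at G12h (-0.87, adjusted p = 2e-05). *FKF1*, a blue light receptor, had 1.75, 2.50 and 2.50 TPM at G24h and 4.24, 5.48 and 4.07 TPM at G12h (-0.78). The RNA-binding protein gene *GRP7* was lower by 0.56 and *LUX* by 0.44. *TOC1*, *GI*, *ELF3* and *ZTL* had fold changes of 0.02, -0.04, 0.04 and 0.10.

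The 250 bases upstream of the annotated start were read from the RefSeq TAIR10.1 sequence for 3 of the morning genes that the clock result turns on, and are shown so that their motifs can be compared. Capitals mark 3 motifs, searched on both strands: the evening element (AAATATCT), the G-box (CACGTG) and the core of a heat shock element (GAANNTTC). The LHY sequence lies at chr1:37872-38121 on the minus strand, and CCA1 at chr2:19245341-19245590 and PRR9 at chr2:19232357-19232606 on the plus strand.
LHY: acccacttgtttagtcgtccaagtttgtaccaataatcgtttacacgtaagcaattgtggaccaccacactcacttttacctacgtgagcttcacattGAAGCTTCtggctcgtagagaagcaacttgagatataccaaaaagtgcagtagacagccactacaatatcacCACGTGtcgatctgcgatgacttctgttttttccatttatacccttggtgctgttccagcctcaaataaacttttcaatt
CCA1: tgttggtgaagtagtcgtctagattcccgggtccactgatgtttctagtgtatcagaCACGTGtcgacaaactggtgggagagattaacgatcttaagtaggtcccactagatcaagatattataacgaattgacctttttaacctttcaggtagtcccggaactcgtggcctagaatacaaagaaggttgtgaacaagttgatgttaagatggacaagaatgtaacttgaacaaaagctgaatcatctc
PRR9: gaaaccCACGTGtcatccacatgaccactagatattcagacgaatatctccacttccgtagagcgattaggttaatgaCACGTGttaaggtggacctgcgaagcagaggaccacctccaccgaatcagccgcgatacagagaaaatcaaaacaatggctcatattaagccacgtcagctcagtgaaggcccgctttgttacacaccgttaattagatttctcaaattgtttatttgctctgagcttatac

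LHY and CCA1 each held a G-box, whose first base lay 80 and 193 bases upstream of the start, and PRR9 held G-boxes at 244 and 172 bases. Of the 10 morning genes, 6 had a G-box and 0 had an evening element, and of the 12 afternoon and evening genes, 2 had a G-box and 7 had an evening element. Among the promoters of all tested genes, 8.04% held a G-box and 4.77% an evening element. A G-box stood in 13 of the 56 genes that rose (23.2%), in 12 of the 96 that fell (12.5%) and in 6.49% of all 27444 promoters. Such a match is a description of letters, not of a bound site.

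Over the whole course, *LHY* was lower at G12h than at S48h and at G24h in both genotypes. It averaged 0.860, 20.5, 55.9, 41.4, 1.47 and 35.8 TPM in *h3.3ko* from MS, S12h, S24h, S48h and G12h to G24h, and 0.383, 29.2, 69.7, 24.3, 3.47 and 157 TPM in Col. *ELF4* averaged 59.0 TPM at S48h, 277 TPM at G12h and 151 TPM at G24h in *h3.3ko*, and 52.9, 737 and 13.6 TPM in Col. At G24h *LHY* thus reached 35.8 ± 2.33 TPM in *h3.3ko* and 157 ± 7.49 TPM in Col, while *ELF4* stayed at 151 ± 10 TPM in *h3.3ko* against 13.6 ± 0.639 TPM in Col (SD, n = 3 each).

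**Figure D2:**
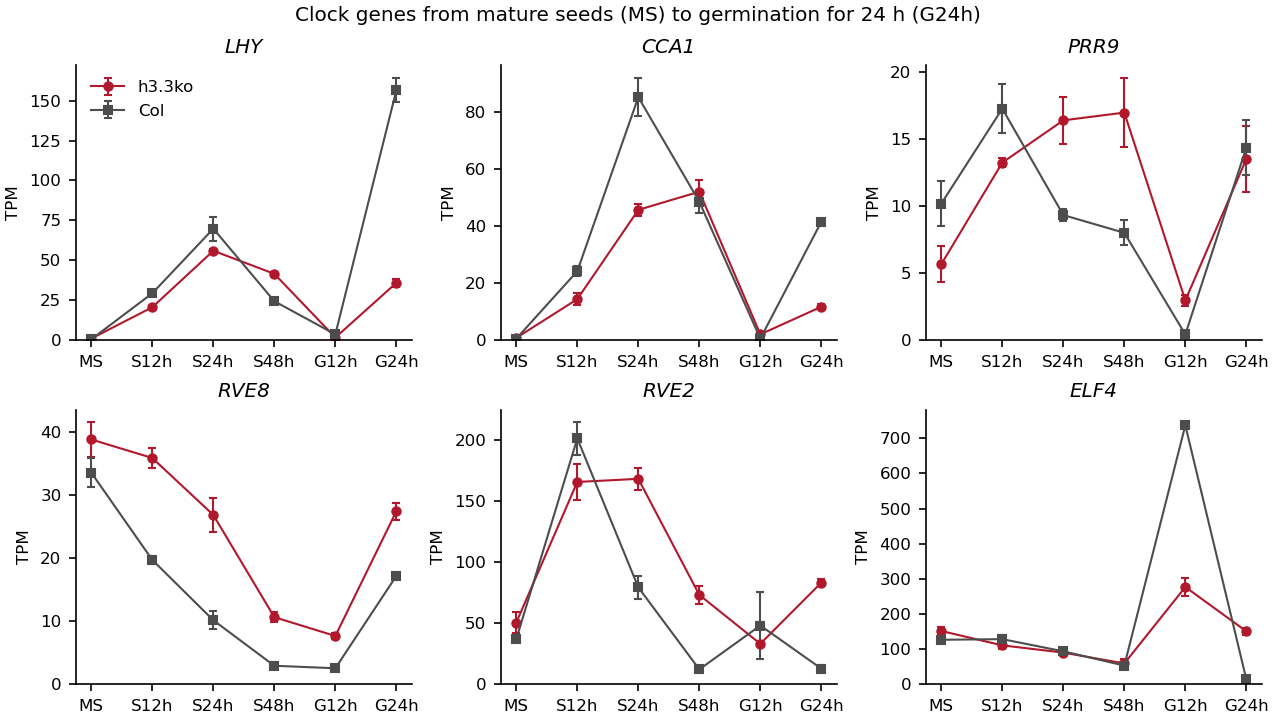
Mean TPM of 6 clock genes in *h3.3ko* and Col at the 6 time points in their order, with SD bars (n = 3). *LHY*, *CCA1* and *PRR9* lie low at G12h in both genotypes and are higher at G24h, and *ELF4* shows the opposite order, with a larger difference in Col.

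Of the 10 morning genes, 5 had a more negative and 2 a more positive step in *h3.3ko* than in Col. *LHY* rose by 3.90 in *h3.3ko* and by 5.14 in Col, and the interaction test, which asks whether the *h3.3ko* step and the Col step differ, gave -1.24 (adjusted p = 3.8e-06). The interaction was -2.79 for *CCA1*, -1.58 for *PRR9*, -2.57 for *LNK2* and -1.82 for *LNK1*. *RVE2* went the other way, with a rise of 1.31 in *h3.3ko* and a step of -1.72 in Col (interaction 3.02), where replicate 2 of Col G12h, at 79.9 TPM, stood above 33.8 and 30.3 TPM in the other replicates. *ELF4* was lower by 0.87 in *h3.3ko* and fell by 5.66 in Col, an interaction of 4.79, the largest positive value among genes of at least 5 TPM. Of the 12 afternoon and evening genes, 6 had a more positive and 2 a more negative step in *h3.3ko* by more than 2-fold, where 18.1% of all 18253 genes had such an interaction in either direction.

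Among further rises, chosen here after their values were seen, were genes of ER bodies. ER bodies are compartments of the endoplasmic reticulum in Brassicaceae that hold the beta-glucosidase PYK10, whose substrates are defence glucosides. *PYK10* had 184, 188 and 230 TPM at G24h and 50.6, 54.2 and 80.4 TPM at G12h (1.71). *PBP1*, a lectin that binds PYK10, had 226, 212 and 244 TPM at G24h and 70.8, 99.6 and 105 TPM at G12h (1.32). *NAI2*, which is needed to form ER bodies, rose by 1.21 and the lectin gene *JAL34* by 1.17 (lost without replicate 1 of G12h). The myrosinase gene *TGG2*, not counted here as an ER body gene, rose by 1.44. It averaged 4.11 TPM at G24h and 0.895 TPM at G12h. Of the 10 tested genes described as mannose-binding or jacalin-related lectins, 5 rose and 0 fell, against 0.342% and 0.586% of all tested genes. *PYK10*, *PBP1* and *NAI2* also rose in Col, by 1.16, 1.19 and 1.18, at levels of 4768, 2263 and 463 TPM in Col at G24h against 201, 227 and 66.6 TPM in *h3.3ko*.

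Further genes, likewise chosen after their values were seen, are given with related genes that did not reach 2-fold. *HYH*, a homologue of the light regulator *HY5*, had 96.1, 95.2 and 94.7 TPM at G24h and 33.6, 34.0 and 34.3 TPM at G12h (1.46), and *HY5* itself was higher by 0.78 (adjusted p = 6e-05). *BBX28*, a B-box protein that acts on HY5, had 17.9, 15.7 and 15.9 TPM at G24h and 5.27, 3.74 and 4.90 TPM at G12h (1.64). Of the flavonoid enzymes, *F3H* rose by 1.28 and *CHIL* by 1.31, *FLS1* was higher by 0.93 (adjusted p = 0.011) and *CHS* had a fold change of 0.57 (adjusted p = 0.058). *EPR1* (AT1G18330), a MYB gene of the *LHY* family, had 62.7, 64.8 and 65.6 TPM at G24h and 25.4, 21.1 and 27.9 TPM at G12h (1.35). AT1G68240, a bHLH gene, rose by 1.59 in *h3.3ko* and fell by 2.11 in Col.

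The gene with the largest fall was *DIN10*, a raffinose synthase family gene induced by darkness and sugar starvation. It had 5.84, 6.47 and 5.92 TPM at G24h and 24.3, 24.8 and 34.7 TPM at G12h (-2.02 ± 0.12, adjusted p = 2.9e-06). The related gene *SIP1* (AT1G55740), named for seed imbibition and chosen after its values were seen, fell by 1.37. The other starvation genes did not pass 2-fold, with -0.30 for *ASN1* and 0.15 for *DIN1*. In the course, *DIN10* averaged 0.135 TPM at MS, 77.7 TPM at S48h, 28.0 TPM at G12h and 6.08 TPM at G24h in *h3.3ko*, and its step was like that in Col (-2.15, interaction 0.13, adjusted p = 0.47). *PDC1*, a pyruvate decarboxylase of fermentation, had 11.5, 12.3 and 12.7 TPM at G24h and 33.4, 30.6 and 26.2 TPM at G12h (-1.23), while *ADH1*, the next enzyme, differed by -0.12.

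Other falls were spread over several functions. AT3G22100, a bHLH gene, had 1.26, 0.902 and 1.70 TPM at G24h and 5.59, 7.61 and 7.79 TPM at G12h (-1.81), on 7 to 14 and 43 to 61 reads. *EPR1* (AT2G27380), an extensin-like wall protein of the endosperm, had 12.7, 10.2 and 6.68 TPM at G24h and 36.5, 28.7 and 27.9 TPM at G12h (-1.59). *CP1* (AT4G36880), a cysteine proteinase, had 76.0, 60.0 and 69.8 TPM at G24h and 172, 175 and 242 TPM at G12h (-1.49). AT1G10990, of unknown function, had 1.44, 1.47 and 1.17 TPM at G24h and 5.59, 5.99 and 4.70 TPM at G12h (-1.44), and it rose by 2.75 in Col (interaction -4.19). Chosen after their values were seen, the arabinogalactan gene *AGP15* and the cystatin gene *CYSA* fell by 1.25 and 1.38.

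The listed heat shock genes were lower at G24h. All 9 listed genes were lower at an adjusted p under 0.05, against 37.5% of all tested genes, 5 of them fell by more than 2-fold, and the median was -1.0. Over the wider families the shift was smaller: of 28 tested genes described as small heat shock or HSP20-like proteins 11 fell, with a median of -0.52, and of 16 heat shock factors 2 fell, with a median of -0.29. The share of all tested genes that fell was 0.586%. *HSP22*, a small heat shock protein of the endoplasmic reticulum, had 17.9, 24.8 and 29.1 TPM at G24h and 123, 73.5 and 53.2 TPM at G12h (-1.70). The chloroplast protein gene *HSP21* fell by 1.25, *HSP17.6II* by 1.13 and *HSP17.6C* by 1.04. *HSFA2*, a transcription factor that activates heat shock genes, had 37.6, 51.3 and 51.4 TPM at G24h and 169, 82.2 and 59.0 TPM at G12h (-1.0). *HSP101*, *HSP17.4*, *HSP17.6A* and *HSP18.2* had fold changes between -0.99 and -0.89. The unlisted small chaperone genes AT1G59860, AT1G52560 and AT2G29500 were among the 10 largest falls by the naming rule, at -1.88, -1.60 and -1.41. The Col steps of *HSP22*, *HSP21*, *HSP17.6II*, *HSP17.6C* and *HSFA2* were -2.54, -1.46, -1.32, -3.25 and -1.73. Of these, *HSP17.6C* and *HSFA2* were called in Col, and none had a called interaction. The 9 listed genes took 0.00991 ± 0.00274% of TPM in Col at G24h and 0.0685 ± 0.0721% at G12h (SD, n = 3 each).

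The spread between replicates was wide in this group. Replicate 1 of G12h held the highest value and replicate 1 of G24h the lowest for each of *HSP22*, *HSP21*, *HSFA2*, AT1G52560 and AT2G29500, and AT1G59860 had 409 TPM in replicate 1 of G12h against 147 and 88.0 TPM in the others. *HSFA7A*, a further heat shock factor chosen after its values were seen, had 4.21, 5.08 and 3.16 TPM at G24h and 47.3, 8.95 and 6.83 TPM at G12h (-1.61), a call that was lost under median-of-ratios scaling, without replicate 1 or 3 of G24h and without replicate 1 of G12h. Only *HSP22* and *HSP21* of the 5 stayed past 2-fold without replicate 1 of G12h, and also without replicate 1 of G24h and under median-of-ratios scaling. Under median-of-ratios scaling 8 of the 9 genes remained lower at an adjusted p under 0.05. In sum, the 9 genes took 0.140%, 0.189% and 0.248% of all TPM at G24h and 0.495%, 0.379% and 0.275% at G12h, without overlap (exact permutation test, two-sided, p = 0.1, the smallest that 3 against 3 libraries allow).

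The *HSFA2* promoter, at chr2:11135374-11135623 on the plus strand, is shown as an example of the group, with a G-box and heat shock element cores in capitals.
HSFA2: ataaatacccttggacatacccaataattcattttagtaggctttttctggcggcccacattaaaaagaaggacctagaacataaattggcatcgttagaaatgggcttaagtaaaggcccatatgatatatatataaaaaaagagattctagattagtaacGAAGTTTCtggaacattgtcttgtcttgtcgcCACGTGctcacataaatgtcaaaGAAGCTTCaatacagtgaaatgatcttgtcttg
The first bases of its heat shock cores lay 88 and 33 bases upstream of the start and that of its G-box 56 bases. Of the 9 listed heat shock genes, 4 held such a core, against 9.17% of all tested promoters and 10 of the 96 genes that fell (10.4%).

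Expansins are proteins that loosen cell walls and let the embryo grow. Of 8 listed, 3 fell, 6 were lower at an adjusted p under 0.05, against 37.5% of all tested genes, and none was higher, with a median of -0.73. Over all 11 tested genes described as expansins, 3 fell, against 0.586% of all tested genes, and the median was -0.48. *EXPA1* had 34.1, 36.5 and 38.4 TPM at G24h and 113, 101 and 137 TPM at G12h (-1.65). *EXPA10* had 32.2, 35.7 and 39.8 TPM at G24h and 85.2, 88.7 and 110 TPM at G12h (-1.37), and *EXPA8* had 2.3, 2.18 and 3.07 TPM at G24h and 7.63, 7.73 and 5.49 TPM at G12h (-1.17). The 3 falls held under median-of-ratios scaling and without replicate 1 of G24h. *EXPA2* and *EXPA3* were lower by 0.63 and 0.83, while *EXPA15* and *EXPA20* differed by -0.09 and -0.08. None of 5 xyloglucan enzymes and 4 mannanases tested passed 2-fold, where 0.342% of all tested genes rose and 0.586% fell.

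The levels from which expansins fell differed between the genotypes. *EXPA1* averaged 210 TPM at S48h, 117 TPM at G12h and 36.3 TPM at G24h in *h3.3ko*, and 6159, 1984 and 215 TPM in Col. Its fall was smaller in the mutant, -1.65 against -3.20 in Col (interaction 1.55, adjusted p = 2.6e-07), and the interaction of *EXPA10* was 2.44. Of the 8 expansins, 4 had a more positive step in *h3.3ko* by more than 2-fold and none a more negative one. Over all 18253 genes, 691 had a more positive and 2612 a more negative one.

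Genes of gibberellin signalling were nearly level, with falls at the last step of synthesis. *GA3OX2*, which makes active gibberellin in germinating seeds, had 1.89, 0.740 and 1.02 TPM at G24h and 3.45, 3.93 and 4.17 TPM at G12h (-1.16), and *GA3OX1* had 0.697, 0.548 and 0.363 TPM at G24h and 2.27, 2.3 and 1.69 TPM at G12h (-1.01). These rest on 13 to 34 and 7 to 13 reads at G24h. *GA3OX1* was no longer past 2-fold under median-of-ratios scaling or without replicate 1 or 2 of G12h or replicate 3 of G24h. *GA20OX3*, of the step before, had 32.0, 24.7 and 24.5 TPM at G24h and 23.1, 19.5 and 16.4 TPM at G12h (0.44, adjusted p = 0.014), whereas it fell by 3.41 in Col (interaction 3.85). The receptors *GID1A*, *GID1B* and *GID1C* had fold changes of 0.05, 0.01 and 0.03. Of the DELLA repressors, *GAI*, *RGA* and *RGL3* were lower by 0.42, 0.33 and 0.46, and *RGL2*, the main DELLA of seeds, was at 289, 290 and 296 TPM at G24h and 257, 278 and 327 TPM at G12h.

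On TPM as deposited, genes of abscisic acid and seed maturation changed by less than 2-fold. Of 16 tested genes of synthesis, catabolism and signalling phosphatases, none was called. At an adjusted p under 0.05, 2 were higher and 4 lower, against 6.72% and 37.5% of all tested genes. *ABA1*, the zeaxanthin epoxidase, had 66.7, 71.5 and 63.2 TPM at G24h and 39.7, 37.5 and 42.0 TPM at G12h (0.74), and the phosphatase *HAB1* had 25.8, 29.5 and 25.5 TPM at G24h and 14.0, 14.5 and 13.8 TPM at G12h (0.88). *CYP707A1*, which breaks abscisic acid down, differed by -0.05 in *h3.3ko* and rose by 3.14 in Col (interaction -3.19). Of the maturation regulators, *EEL* was higher by 0.82 and *ABI4* and *FUS3* lower by 0.74 and 0.53. *ABI3*, *ABI5*, *DOG1*, *SOM* and *PIF1*, which hold a seed dormant or repress germination, had fold changes between -0.22 and -0.02. *ABI5* averaged 133 ± 5.84 TPM in *h3.3ko* and 46.3 ± 1.85 TPM in Col at G24h, and *PIF1* 87.0 ± 5.15 TPM and 30.1 ± 1.29 TPM (SD, n = 3 each).

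**Figure D3:**
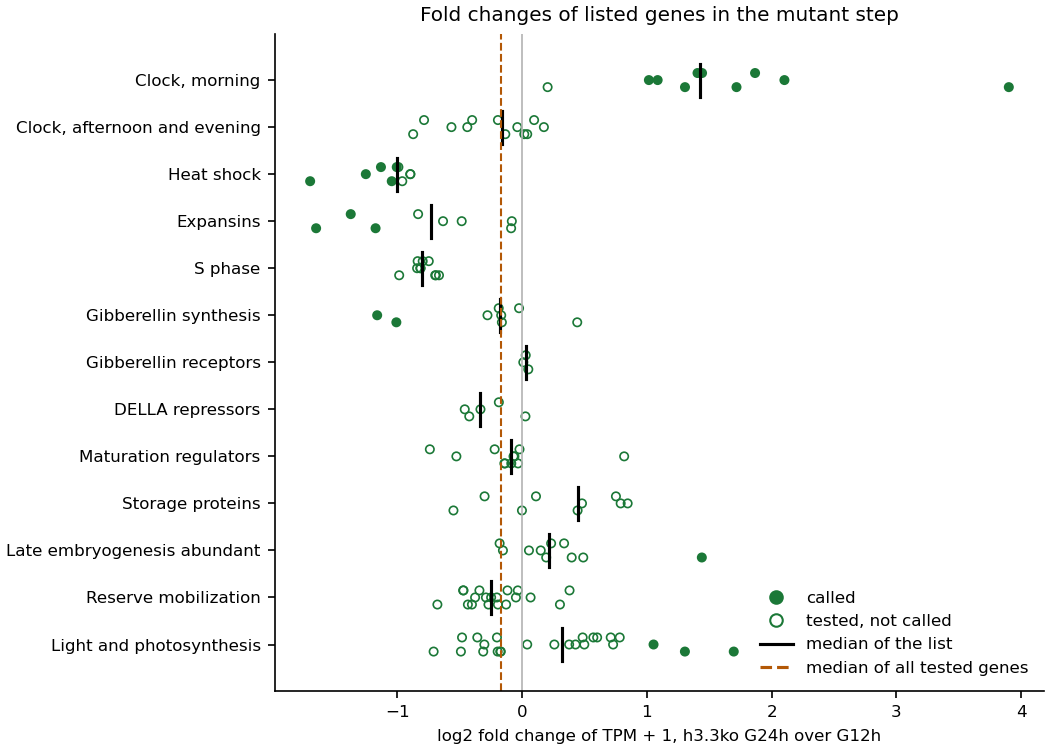
Log2 fold changes of the tested members of 13 gene lists in *h3.3ko*, G24h over G12h. Filled points are called genes, black bars the list medians, and the dashed line the median of all tested genes at -0.17. Morning clock genes lie to the right with a median of 1.42, and heat shock, S phase and expansin genes to the left, with medians of -1.0, -0.80 and -0.73.

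Storage protein transcripts took a larger share of the mutant libraries at G24h. The 9 listed genes for albumins and cruciferins made up 18.4%, 17.5% and 15.6% of all TPM at G24h and 12.5%, 11.6% and 10.3% at G12h, without overlap, a difference of 5.75 percentage points (exact permutation test, two-sided, p = 0.1, the smallest possible). In Col they made up 0.0323% at G24h. None of the 9 passed 2-fold on TPM as deposited. At an adjusted p under 0.05, 5 were higher and 2 lower, against 6.72% and 37.5% of all tested genes. *SESA5* had 34114, 32326 and 30592 TPM at G24h and 19267, 18349 and 16410 TPM at G12h (0.85), and *CRU3* and *CRA1* were higher by 0.79 and 0.75. *SESA4*, a neighbour of the near-identical *SESA1* to *SESA3*, was lower by 0.55, and the split of reads among these copies is uncertain. In the course *SESA5* averaged 111707 TPM at MS, 22731 TPM at S48h, 18009 TPM at G12h and 32344 TPM at G24h in *h3.3ko*.

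Other seed transcripts moved little. Oleosins and caleosins, the coat proteins of oil bodies, took 1.31% of TPM at G24h and 1.1% at G12h, and of 7 genes *OLEO5* was higher by 0.75 and *OLEO4* by 0.42. Late embryogenesis abundant genes, whose proteins protect dry tissue, took 3.52 ± 0.0769% at G24h and 3.02 ± 0.0689% at G12h (SD, n = 3 each). Among these 10 genes *M17* alone rose, with 66.2, 62.1 and 61.2 TPM at G24h and 28.8, 20.3 and 19.8 TPM at G12h (1.44), and it fell by 1.95 in Col (interaction 3.39). The enzymes that turn stored oil into sugar took 2.09 ± 0.148% at G24h and 2.04 ± 0.136% at G12h (exact permutation p = 0.6). None of these 19 genes passed 2-fold. *ICL*, isocitrate lyase, was higher by 0.30, while the lipase gene *SDP1* and the acyl-CoA oxidase gene *ACX2* were lower by 0.43 and 0.68.

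Genes of DNA replication were lower in the mutant at G24h and higher in Col. Of 12 listed S phase genes 10 were tested, and all 10 were lower at an adjusted p under 0.05, against 37.5% of all tested genes, with none past 2-fold and a median of -0.80, which was -0.63 with median-of-ratios scaling. *PCNA1*, the sliding clamp of DNA polymerase, had 13.9, 13.9 and 13.6 TPM at G24h and 22.2, 29.8 and 34.2 TPM at G12h (-0.98, adjusted p = 0.00013). The 6 subunits of the MCM helicase lay between -0.84 and -0.69, and the ribonucleotide reductase genes *RNR1* and *TSO2* at -0.75 and -0.66. In Col *PCNA1* averaged 145 ± 3.13 TPM at G24h and 70.4 ± 0.767 TPM at G12h. The interaction was more negative than -1 and past the test for all 12 S phase genes, with a median of -1.55. Over all 18253 genes, this held for 2612. Of the D cyclins, which start the cycle, none of 7 passed 2-fold, and of 6 mitosis genes *CYCB1;1* alone was tested, at -0.22.

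Histone genes gave a mixed picture. Of the 5 genes for the replicative H3.1, *HTR13* was lower by 0.60 (adjusted p = 0.00025) and the others lay between -0.28 and -0.04, whereas the Col fold changes of the 5 genes lay between 0.98 and 1.86. Among the genes chosen after their values were seen, *DUT1*, a dUTPase that keeps uracil out of DNA, fell by 1.14, and *ATXR6*, a methyltransferase for H3.1, had 1.07, 0.889 and 1.09 TPM at G24h and 3.11, 4.03 and 4.46 TPM at G12h (-1.26). Both rose in Col, by 1.23 and 1.33, and the fall of *DUT1* was lost under median-of-ratios scaling. Of the 31 tested genes described as histone superfamily proteins, 2 fell, against 0.586% of all tested genes. AT1G75600 had 29.5, 37.5 and 38.7 TPM at G24h and 97.4, 104 and 75.6 TPM at G12h (-1.36), and in the course it averaged 12.1, 469, 654, 377, 92.5 and 35.2 TPM in *h3.3ko* from MS to G24h, against at most 9.28 TPM in Col. AT1G13370 fell by 1.0, a call that was lost without replicate 1 of G24h, without replicate 1 or 2 of G12h and under median-of-ratios scaling.

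Genes of light and photosynthesis stayed low in the mutant beside Col. Of 36 listed genes 24 were tested, 3 rose and none fell, against 0.342% and 0.586% of all tested genes. At an adjusted p under 0.05, 11 were higher and 3 lower, against 6.72% and 37.5% of all tested genes. *ELIP1*, which codes for an early light-induced protein of the thylakoid, had 55.8, 56.5 and 59.2 TPM at G24h and 19.9, 15.5 and 15.7 TPM at G12h (1.70). The other rises, *LHCB1.5* and *RBCS2B*, rest on replicate 1 and are described below with it. *LHCB1.2* was higher by 0.71 and *LHCB1.3* lower by 0.71, and these near-identical neighbours can share reads. In Col *ELIP1* averaged 688 ± 117 TPM at G24h and 9.15 ± 2.41 TPM at G12h, and the interaction was -4.40. Of 17 genes for light-harvesting proteins, 16 had a more negative step in *h3.3ko* by more than 2-fold, with a median interaction of -3.67. Over all 18253 genes, 2612 had such a step. The listed genes together took 0.0965% of TPM in *h3.3ko* and 0.819% in Col at G24h. Of the aquaporins, *PIP2;1* rose by 1.01 in *h3.3ko*, a call lost without replicate 1 of G24h and also without replicate 1 or 3 of G12h, and 3 vegetative tonoplast genes were too low to be tested.

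Replicate 1 of *h3.3ko* G24h differed from replicates 2 and 3 in a small set of genes that are abundant in Col at G24h. With at least 5 reads in that library and 0 in the other 5, 22 genes were found, with 374 reads in all, whereas each of the other 5 libraries had 0 such genes. The median level of the 22 genes in Col at G24h was 23.8 TPM, and 15 of them had at least 10 TPM there. *ELP*, an extensin-like gene, had 161, 0 and 0 reads at G24h and 0 in the G12h libraries, against 1184 TPM in Col at G24h. The vegetative aquaporin gene *TIP1;2* had 34, 0 and 0 reads at G24h and 1, 2 and 1 reads at G12h.

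Over the 32 genes with at least 100 TPM in Col at G24h and under 1 TPM in the *h3.3ko* G12h libraries, the summed level was 102 TPM in replicate 1 of *h3.3ko* G24h and 16.5 and 18.5 TPM in replicates 2 and 3. This is 1.2%, 0.195% and 0.218% of the Col G24h mean, and the *h3.3ko* G12h libraries had 9.53 to 10.3 TPM. In replicate 1, 30 of the 32 genes reached 1 TPM, against 8 and 6 in the other replicates. The source of these reads was not tested.

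The 8 genes with the largest excess in replicate 1 were not confined to it, as those given with values here also had reads in the other *h3.3ko* libraries. *LHCB1.5* had 7.12, 1.33 and 1.84 TPM at G24h (71, 13 and 19 reads) and 0.725, 0.719 and 0.203 TPM at G12h, a fold change of 1.31 that was not called without replicate 1. *RBCS2B*, for a Rubisco small subunit, had 8.54, 1.38 and 3.13 TPM at G24h and 0.929, 1.84 and 0.912 TPM at G12h, and its call at 1.05 was lost too. AT1G62480 had 7.46, 2.90 and 2.83 TPM at G24h and 0.975, 1.16 and 1.72 TPM at G12h (1.15), again lost without replicate 1. AT5G26260 had 7.55, 1.71 and 2.96 TPM at G24h and 0.148, 0.147 and 0.0485 TPM at G12h, and its rise of 2.02 was also called without replicate 1. *EXT3*, AT4G15160, *GASA4* and AT4G01700 were also highest in replicate 1 and were not called.

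The 8 genes with the largest deficit in replicate 1 included the chaperones *Hsp70b* and AT1G54050. *Hsp70b* had 253, 425 and 471 TPM at G24h and 930, 736 and 567 TPM at G12h (-0.98), and AT1G54050 had 69.0, 108 and 144 TPM at G24h and 398, 251 and 159 TPM at G12h (-1.29, lost without replicate 1 of G12h). The flavonol synthase gene *FLS1* had 13.6, 22.0 and 24.9 TPM at G24h and 6.28, 9.92 and 14.8 TPM at G12h. AT1G14642, AT1G24996, the mitochondrial ATMG00200, AT3G24420 and *KUF1* completed this set and were not called. Counted over all tested genes, 9 exceeded both other replicates by more than 1 log2 unit in replicate 1 of G24h, against 4 and 2 in replicates 2 and 3, and 10, 3 and 1 did so in replicates 1, 2 and 3 of G12h. In Col the counts for replicates 1, 2 and 3 were 2, 6 and 2 at G24h and 11, 64 and 6 at G12h. Replicate 2 of Col G12h thus had the highest count, and the Col steps and interactions include it.

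**Figure D4:**
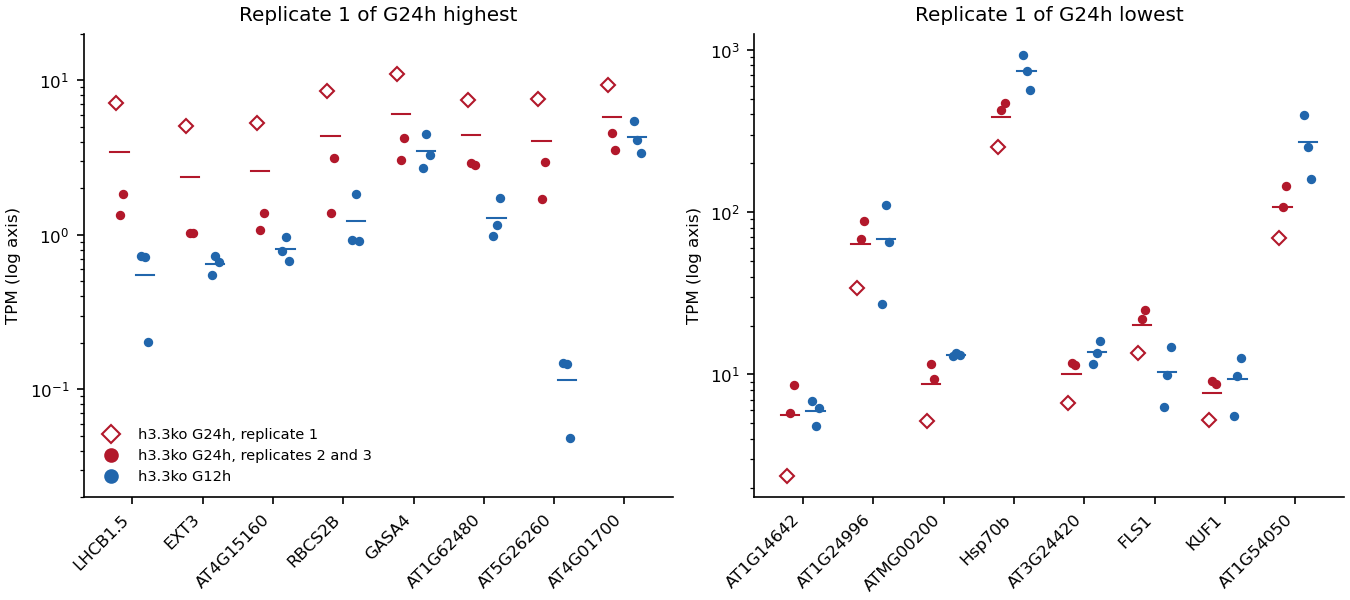
TPM in the *h3.3ko* libraries, on log axes, of the 8 genes with the largest excess (left) and the 8 with the largest deficit (right) in replicate 1 of G24h, with G24h left of G12h. Open diamonds are replicate 1, points the other libraries, and bars the means of 3. For *LHCB1.5* the diamond lies at 7.12 TPM and the other G24h libraries at 1.33 and 1.84 TPM.

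The same interval in Col changed far more. Of 18253 genes expressed in either genotype, 2173 rose and 761 fell in Col (16.1% in both directions), with a standard deviation of fold changes over the genes tested in *h3.3ko* of 0.31 in *h3.3ko* and 0.89 in Col. In *h3.3ko* 87.7% of these genes changed by less than 0.5 on the log2 scale, against 63.2% in Col. Of the 1214 Col rises tested in the mutant, 40 rose there, with a median fold change of -0.06 in *h3.3ko* and 1.51 in Col. Of the 647 Col falls tested in the mutant, 28 fell there, with medians of -0.22 in *h3.3ko* and -1.38 in Col.

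Most rises of the mutant were also called in Col, and most falls were not. Of the 56 rises, 40 were also called higher in Col, 3 were called lower and 13 were not called, and of the 96 falls, 28 were also called lower in Col, 11 were called higher and 57 were not called. Over all 16377 genes tested in both steps, 1214 were called higher and 647 lower in Col. Under median-of-ratios scaling 55 of the 56 rises and 43 of the 96 falls were called in *h3.3ko*. The median Col fold change was 1.53 over the 56 and -0.41 over the 96. The interaction itself was called for 25 of the 56 rises, 9 of them more positive and 16 more negative in *h3.3ko* than in Col, and for 44 of the 96 falls, 37 of them more negative and 7 more positive in *h3.3ko*. Over all genes the step was more positive in *h3.3ko* for 691 and more negative for 2612.

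The largest differences between the genotypes were in genes that Col switched on. The interaction was -8.07 for *LHCB1.5*, -6.76 for the peroxidase AT5G64120, -6.68 for the lipid-transfer protein gene AT2G10940 and -6.52 for *TIP1;2*. *LHCB1.5* averaged 3.43 ± 3.20 TPM in *h3.3ko* at G24h, the spread coming from replicate 1, and 816 ± 108 TPM in Col. AT5G64120, AT2G10940 and *TIP1;2* were at 1.02, 0.891 and 0.812 TPM in *h3.3ko* and at 191, 213 and 132 TPM in Col. Replicate 1 is included in these *h3.3ko* means. The *TIP1;2* mean came from replicate 1 alone, as the other *h3.3ko* G24h libraries had no read of it. On the positive side stood genes that Col lowered, *ELF4* at 4.79, *SEOR1*, a protein of phloem sieve elements, at 4.41, AT2G15880, a leucine-rich repeat gene, at 4.33 and *GA20OX3* at 3.85. *SEOR1* averaged 4.72 TPM in *h3.3ko* at G24h and 2.16 TPM in *h3.3ko* at G12h, against 5.05 TPM in Col at G24h and 69.4 TPM in Col at G12h.

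Other named rises differed from Col in level. *PDF1.4* had 178 ± 11.2 TPM in *h3.3ko* and 0 TPM in Col at G24h, and 1.93 TPM at S48h and 29.9 TPM at G12h in *h3.3ko* (interaction 3.18). *TT7* rose by 1.81 in *h3.3ko* and had a step of -0.53 in Col (interaction 2.34), with 47.9 TPM in *h3.3ko* and 15.0 TPM in Col at G24h. The trypsin inhibitor gene *TI2*, chosen after its values were seen, had 40.4, 52.3 and 47.7 TPM at G24h and 22.8, 20.3 and 20.8 TPM at G12h (1.09), against 0.242 TPM in Col at G24h. The adenosylmethionine decarboxylase AT5G15950 reached 18.0 ± 1.79 TPM in *h3.3ko* and 250 ± 36.6 TPM in Col at G24h (interaction -3.59).

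**Figure D5:**
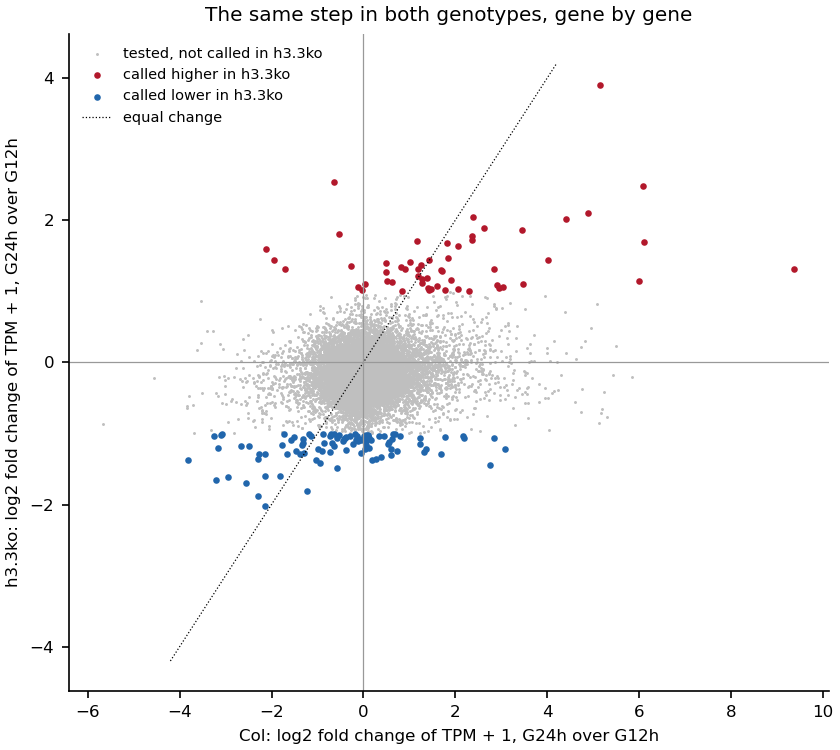
Log2 fold changes, G24h over G12h, of the 16377 tested genes in *h3.3ko* (y axis) and in Col (x axis). Red points rose and blue points fell in *h3.3ko*, and the dotted line marks equal change. The Col axis spans more, with a standard deviation over genes of 0.89 against 0.31 in *h3.3ko*.

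Across the 16377 genes, the *h3.3ko* step had a correlation of 0.17 with the Col step, and of 0.136 to 0.190 when each G24h library was taken alone. With the earlier change in *h3.3ko* seeds from MS to S48h, which shares no library with the step, the correlation was -0.46, and with the change from S12h to S24h it was -0.33. Genes with a more positive change before thus tended to have a more negative step. *DIN10* and *EXPA1* had gone up by S48h and fell in the step, and *SESA5* had gone down and was higher in the step. *LHY*, the largest rise, went against this order, as it had also gone up by S48h. These are descriptions over genes, which are not independent replicates and share the base of TPM as parts of a total.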

How the data were processed

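Per the study's methods, total RNA was sequenced as paired reads on a BGI platform, in 3 biological replicates a group. The authors trimmed reads with fastp 0.20.1, mapped them to TAIR10 with HISAT2 2.1.10, counted them with HTSeq 0.11.2 and deposited TPM per gene. These TPM had been divided by genomic spans, introns included, so whole reads could be recovered from the deposited table for 27440 of 27655 genes (99.96% of low values whole in the lowest library). Libraries were made with a BGISEQ RNA-seq kit, not stated to keep strand (a directional kit is stated only for separate mature-seed libraries), so antisense overlaps cannot be told apart.

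TPM are not counts, so log2(TPM + 1) was tested with limma 3.58.1 in R 4.3.3 (variance trend, Benjamini-Hochberg over all genes tested, adjusted p under 0.05 and log2 fold change above 1 in size) in place of the authors' DESeq2 1.26.0 on counts. Fits used the 6 libraries of each genotype, and the interaction all 12. Of the 11278 genes not tested, 5173 were at 0 in all 6 libraries, and 157 missed the filter at 0.9 to 1 TPM while 149 passed it at 1 to 1.1 TPM. At least 1 TPM in every G24h library and under 1 in every G12h library was found for 34 genes, 4 of them called, and the opposite for 76, 6 of them called. Replicates differed beyond sampling noise, so none was counted as a duplicate.

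The named genes were the 10 largest called changes in each direction with at least 5 TPM in the higher group, no overlap and the same call without replicate 1 of G24h (42 rises and 60 falls met this), the 4 largest interactions in each direction, and the 8 largest excesses and deficits in replicate 1 of G24h (at least 5 TPM there, or in the lower of the other replicates for a deficit), beside listed genes and those said to be chosen after their values were seen. Members and lists were chosen with earlier results of these data known. Symbols, positions and promoters were taken from RefSeq TAIR10.1. All 27445 nuclear identifiers matched, and 27444 promoters of 250 bases were read. Alternatives covered the pseudocount, low values, scaling, the fit and each left-out library. Not all promoter sequences read are reported here.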

Additional observations from a re-analysis of the deposited data

Results flagged for a closer look

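A difference between the genotypes in the step from G12h to G24h was found by the interaction test for the genes below, each given as the *h3.3ko* step minus the Col step on the log2 scale. The step was more negative in *h3.3ko* for *LHCB1.5* (-8.07), AT5G64120 (-6.76), AT2G10940 (-6.68), *TIP1;2* (-6.52), AT1G10990 (-4.19), AT5G15950 (-3.59), *CCA1* (-2.79), *PRR9* (-1.58) and *LHY* (-1.24). It was more positive for *ELF4* (4.79), *SEOR1* (4.41), AT2G15880 (4.33), *GA20OX3* (3.85), *PDF1.4* (3.18), *TT7* (2.34) and *EXPA1* (1.55). The first 4 genes and *ELF4*, *SEOR1*, AT2G15880 and *GA20OX3* were picked as the largest interactions, so their size is no independent evidence. *CCA1*, *PRR9*, *LHY* and AT5G15950 rose in both genotypes and *EXPA1* fell in both, so that their difference is of size and not of direction.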

How the results depend on the processing

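The 56 rises and 96 falls in *h3.3ko* became 92 and 205 with a pseudocount of 0.1, 25 and 37 with a pseudocount of 5, 89 and 43 with median-of-ratios scaling, 88 and 45 with quantile normalization, and 112 and 178 with limma-voom on recovered reads. Leaving out each library gave 48 to 65 rises and 79 to 135 falls, with 135 falls without replicate 3 of G12h, and no called gene turned its direction under the alternatives run. The Col counts became 1109 rises and 428 falls with a pseudocount of 5, 1098 rises among genes of at least 5 TPM, and 1162 falls with quantile normalization. The interaction counts became 365 positive and 1279 negative with a pseudocount of 5, 1434 and 1725 with quantile normalization, and 1434 negative among genes of at least 5 TPM. The correlation with the change from MS to S48h became -0.39 with a pseudocount of 0.1 and -0.42 with median-of-ratios scaling. The cause of these shifts was not tested. Of 65 named calls in *h3.3ko*, 21 fell under the thresholds with a pseudocount of 5, 9 with median-of-ratios scaling, 6 in the fit over 36 libraries, 10 without replicate 1 of G24h and 10 without replicate 1 of G12h.

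With the replicate number as a block, 56 genes rose and 97 fell in *h3.3ko*, 2174 and 766 in Col, and 693 interactions were positive and 2615 negative. Deviations of same-numbered libraries correlated at -0.03, -0.23 and -0.06 in *h3.3ko* and 0.02, 0.14 and -0.00 in Col, so the numbers do not pair the libraries. Low depth limits genes such as *GA3OX1*, which had 7 to 13 reads at G24h.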
